A study of Caenorhabditis elegans with 12 samples.

Results

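The comparison described here set fourth-stage (L4) larvae of the nematode Caenorhabditis elegans labelled tax-6 null against L4 larvae labelled WT. Its members are the arrays titled with these names, 3 per strain, so 6 of the 12 arrays in the series, and 10365 genes were tested across them. The tax-6 null animals were strain RB1667, which carries tax-6(ok2065) IV, and the WT animals were N2. The other 6 arrays entered the same fit and are used below only to show where tax-6 null differs from more than WT. They came from the strain labelled crh-1 null, crh-1 (nn3315), and from AGD383, labelled aak-2 o/e, in which a Paak-2c promoter drives residues 1 to 321 of AAK-2 fused to Tomato, with an unc-54 3′UTR and a rol6 marker, in an N2 background (the source field of 1 of its samples reads aak-2 null). No group carried a treatment, and all were fed OP50 bacteria. RB1667 is a single mutant line, and nothing here says whether it was outcrossed.

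TAX-6 is the catalytic subunit of calcineurin, the phosphatase that calcium and calmodulin switch on, and CNB-1 is its regulatory subunit. In the worm it is known for roles in thermosensation and chemosensation, body size, fertility and lifespan. The series is concerned with a pathway in which calcineurin and the kinase AMPK act in opposition on CRTC-1, a coactivator of the transcription factor CREB, which crh-1 encodes. RNA came from pools of 3000 whole animals grown from synchronised L1 larvae at 750 per plate, with the replicates of a strain prepared on separate days. Since whole animals were measured, fewer cells of a type and less RNA per cell cannot be told apart in any result below. Freezing times were set for each strain to allow for its speed of development, so strain and exact stage at freezing cannot be told apart either.

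Levels are log2 signals after GCRMA, a probe-level background correction and normalisation for Affymetrix arrays. They reached down to 2.11, and 29.8% of all values lay within 0.1 of that lowest level. A gene was called higher or lower when the limma test gave a Benjamini-Hochberg adjusted p under 0.05. Differences are tax-6 null minus WT on the log2 scale with their standard error (SE). Where all 3 arrays of 1 strain were below 4 the fold is given as a lower bound against that level. Probe sets had to reach 4 on 3 or more arrays to be tested. A gene below 4 on every array outside tax-6 null entered only through the tax-6 null arrays, so its adjusted p is description. Array medians were 5.32 to 5.45, and the number of arrays, not read depth, limits the precision.

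The probe set for tax-6 was dim in every array and did not enter the test. It read 3.43, 3.32 and 2.98 in tax-6 null and 4.02, 3.55 and 3.55 in WT. The tax-6 null values were all below the WT values, but only 1 of the 12 arrays reached the filter of 4, and where the probes lie relative to the ok2065 deletion is not known here, so this probe set is a weak check of the label. The levels of the other targeted genes ran against a simple reading of their labels. The arrays labelled crh-1 null gave more crh-1 signal than tax-6 null (difference -1.17, adjusted p = 8.28e-05), and those labelled aak-2 o/e gave less aak-2 signal than tax-6 null (difference 0.69, adjusted p = 0.01). Mean crh-1 was 8.62 in crh-1 null and 7.16 in WT. Mean aak-2 was 8.59 (standard deviation 0.26) in aak-2 o/e and 9.0 (0.33) in WT, a smaller gap than to tax-6 null. These differences from WT were not tested. Probe positions relative to the nn3315 allele and to the transgene fragment are likewise not known here.

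Between tax-6 null and WT, 4664 genes were called, 45.0% of those tested. Of these 1935 were higher (18.7%) and 2729 lower (26.3%), and the median difference over all genes was -0.09. These shares are the background for the counts of each gene list below. The arrays of the strains did not overlap for 54.5% of all genes. Genes named from a list were mostly picked by small adjusted p, so their separation between the strains is description. At a change of at least 2-fold, 964 were higher (9.3%) and 849 lower (8.19%). Against crh-1 null 37.9% of genes were called and against aak-2 o/e 50.1%, comparisons that share the tax-6 null arrays with the one against WT.

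Replicate 1 of tax-6 null stood apart from the other two. Its correlation over probe sets with replicates 2 and 3 was 0.974 to 0.979, while replicates 2 and 3 correlated at 0.994 and the WT arrays among themselves at 0.993 to 0.995. It was also the tax-6 null array least like WT (0.905 to 0.909, against 0.919 to 0.923 for the others). In this array 638 genes were at least 2-fold from the mean of the strain's other arrays, 231 of them higher and 407 lower. Without it 4810 genes were called against WT, 4215 of them shared with the full set, and no gene was called in the opposite direction. For most groups below, the counts without this array stand beside those with it.

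**Figure D1:**
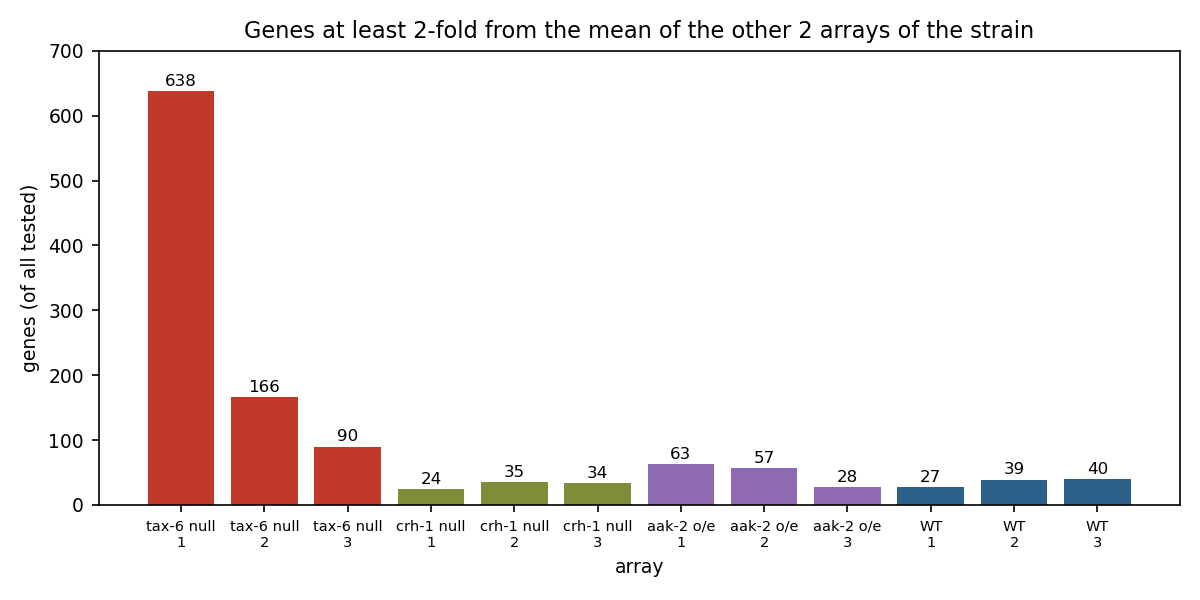
Number of genes (y axis) that differed at least 2-fold on each of the 12 arrays (x axis) from the mean of the other 2 arrays of the same strain. Replicate 1 of tax-6 null had 638 such genes and no other array more than 166.

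Among the 12 class-named genes with the largest rises were 5 col collagens and 3 ground-like hedgehog-related genes, and among the 12 with the largest falls were 3 fatty acid and acyl-CoA enzymes, acdh-1, acox-1.2 and acs-2. Both dbd-17 and stha-3 were among the rises. dbd-17 read 10.11, 9.70 and 9.62 in tax-6 null and 3.47, 3.79 and 3.32 in WT, at least 56.1-fold higher (adjusted p = 1.51e-08). stha-3 read 8.74, 8.24 and 8.21 in tax-6 null and 2.11 in each WT array, at least 21.1-fold higher (adjusted p = 1.82e-09). Both were dim in all WT arrays and bright in all mutant arrays.

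On the falling side, dos-2, a gene of the family of secreted Notch co-ligands, read 6.36, 5.50 and 5.95 in tax-6 null and 9.31, 9.50 and 9.36 in WT (difference -3.46 ± 0.25, adjusted p = 7.69e-07). folt-2, a relative of the folate transporter folt-1, read 7.88, 7.45 and 7.73 in tax-6 null and 10.63, 10.88 and 10.94 in WT (-3.13 ± 0.15, adjusted p = 2.46e-08). acs-2, an acyl-CoA synthetase gene known as a target of the fasting regulator NHR-49, read 5.18, 5.13 and 5.96 in tax-6 null and 8.56, 8.62 and 8.87 in WT (-3.26 ± 0.53, adjusted p = 0.000402). For all 3 genes the strains did not overlap. The folt-2 fall was also seen against crh-1 null (-3.46) and aak-2 o/e (-2.99), whereas dos-2 was higher than in crh-1 null (2.63, adjusted p = 8.35e-06) and acs-2 did not pass against aak-2 o/e (0.27, adjusted p = 0.705).

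**Figure D2:**
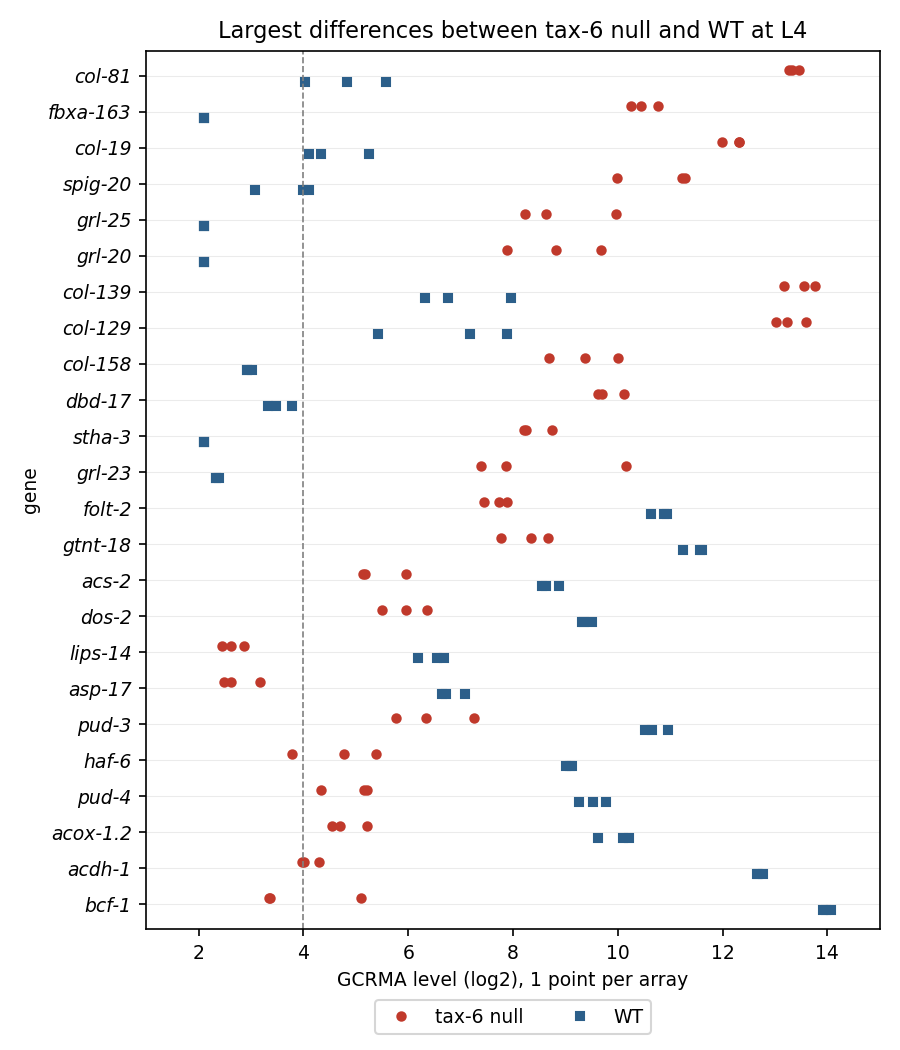
Log2 level on each array for the 12 class-named genes with the largest rises and the 12 with the largest falls (circles, tax-6 null; squares, WT; dashed line, the filter of 4). The arrays of the strains do not overlap for any gene shown, which the rule for choosing them required.

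Cuticle genes split by class. The cuticle is a layered extracellular matrix that the epidermis renews at each moult, and different collagen genes are used at different stages. Of 107 col-class collagens tested, 71 were higher and 16 lower, with a median difference of 1.32, and the strains did not overlap for 89 of them, against 54.5% of all genes. Without tax-6 null replicate 1 the counts were 67 and 16. The 19 collagens named for mutant body shape or blistering ran the other way, with 1 higher, 9 lower and a median of -0.31 (1 and 9 without that array). The col family holds many similar genes, and 47 of the 107 were read by probe sets that Affymetrix marks as able to match more than 1 transcript.

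col-158 read 9.37, 10.00 and 8.69 in tax-6 null and 2.92, 2.92 and 3.01 in WT, at least 40.9-fold higher. Only the tax-6 null arrays carried col-158 past the filter, so its rise is description. col-110 read 9.38, 9.16 and 9.07 in tax-6 null and 11.09, 11.20 and 11.42 in WT (-2.04 ± 0.15, adjusted p = 7.77e-07), and was the col gene with the largest fall. bli-2, which encodes a collagen of the struts between the layers of the adult cuticle, read 12.41, 12.15 and 12.29 in tax-6 null and 14.04, 14.05 and 13.88 in WT (-1.71 ± 0.15, adjusted p = 3.89e-06). Its partner strut collagen gene bli-1 was lower too (-1.59 ± 0.21, adjusted p = 8.92e-05), as were lon-3, a collagen gene that affects body length (-2.12 ± 0.14, adjusted p = 3.83e-07), and sqt-2 (-1.14 ± 0.11, adjusted p = 5.98e-06). Against crh-1 null neither bli-2 (-0.02, adjusted p = 0.919) nor lon-3 (-0.29, adjusted p = 0.136) passed.

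Moulting and developmental timing genes were mixed. Of 28 moulting and apical matrix genes 5 were higher (17.9%, against 18.7% of all genes) and 15 lower (53.6%, against 26.3%), with a median of -0.44 (4 and 16 without tax-6 null replicate 1). mlt-10, a gene needed for moulting, read 8.32, 8.10 and 8.45 in tax-6 null and 10.02, 10.15 and 10.07 in WT (-1.79 ± 0.18, adjusted p = 1.01e-05). nas-37, the astacin protease that helps larvae shed the old cuticle, read 8.22, 7.94 and 8.0 in tax-6 null and 9.65, 9.79 and 9.71 in WT (-1.66 ± 0.16, adjusted p = 6.87e-06). mlt-7, a peroxidase that crosslinks cuticle proteins, read 8.55, 8.23 and 8.48 in tax-6 null and 6.65, 6.83 and 6.82 in WT (1.65 ± 0.14, adjusted p = 2.82e-06). So genes with roles in the same process moved in both directions. Their lack of overlap between the strains is description, since they were picked by small adjusted p. fbn-1, a fibrillin-like matrix gene, was higher than in WT (1.32 ± 0.18, adjusted p = 9.93e-05) and lower than in crh-1 null (-1.21, adjusted p = 0.00026).

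The heterochronic genes set the order of larval stages, with lin-28 and hbl-1 acting early and lin-29 driving the switch to adult epidermis, in which col-19 is expressed. Of 17 tested, 6 were higher (35.3%, against 18.7% of all genes) and 3 lower (17.6%, against 26.3%), with a median of 0.34. The called share was 52.9%, against 45.0% of all genes. The counts were 8 and 2 without tax-6 null replicate 1, and the count of lower genes was 1 without WT replicate 1. The period homologue lin-42, which cycles with the moults, read 8.16, 8.23 and 8.50 in tax-6 null and 9.17, 9.21 and 9.20 in WT (-0.90 ± 0.15, adjusted p = 0.000526). lin-28, an RNA-binding repressor of let-7, read 7.84, 7.26 and 7.54 in tax-6 null and 7.08, 7.05 and 6.81 in WT (0.57 ± 0.14, adjusted p = 0.00603). lin-46 was at least 1.52-fold higher, with 4.68, 4.56 and 4.59 in tax-6 null and 2.94, 3.72 and 3.21 in WT (adjusted p = 0.000144). These levels did not overlap between the strains, although the differences were small beside that of col-19 (7.63 ± 0.33). lin-29 itself read 6.68, 7.13 and 6.92 in tax-6 null and 7.71, 7.61 and 7.18 in WT (-0.59 ± 0.19, adjusted p = 0.0285), a call that ended without any 1 of 4 arrays (adjusted p = 0.0611 without tax-6 null replicate 3, 0.0878 without tax-6 null replicate 1, 0.0898 without WT replicate 2 and 0.107 without WT replicate 1).

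Hedgehog-related proteins and patched-related receptors of the worm are expressed largely in epidermis and are known for roles in moulting and secretion. Of 33 hedgehog-related genes, 12 were higher (36.4%, against 18.7% of all genes) and 15 lower (45.5%, against 26.3%). These counts were 12 and 15 also without tax-6 null replicate 1, and 12 and 14 of them differed at least 2-fold. Some of the rises, such as that of grl-20, entered the test only through the tax-6 null arrays. The ground-like gene grl-21 read 10.66, 10.10 and 10.51 in tax-6 null and 6.86, 6.83 and 6.73 in WT (3.62 ± 0.21, adjusted p = 1.36e-07), and did not pass against crh-1 null (0.15, adjusted p = 0.62). The warthog gene wrt-6 read 9.91, 9.55 and 9.74 in tax-6 null and 11.94, 12.16 and 11.79 in WT (-2.23 ± 0.16, adjusted p = 5.09e-07). Of 19 patched-related genes 2 were higher (10.5%) and 9 lower (47.4%), with a median of -0.42. The patched gene ptc-3 read 9.06, 8.75 and 8.93 in tax-6 null and 9.87, 10.18 and 9.86 in WT (-1.06 ± 0.13, adjusted p = 3.5e-05), while ptr-23 was higher (2.85 ± 0.23, adjusted p = 1.49e-06). In each of these genes the arrays of the strains were fully separate. Among 19 astacin metalloproteases 8 were higher (42.1%) and 4 lower (21.1%). The count of lower genes was 2 without tax-6 null replicate 1 or without any single WT array. toh-1 was at least 10.8-fold higher (adjusted p = 4.3e-08).

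**Figure D3:**
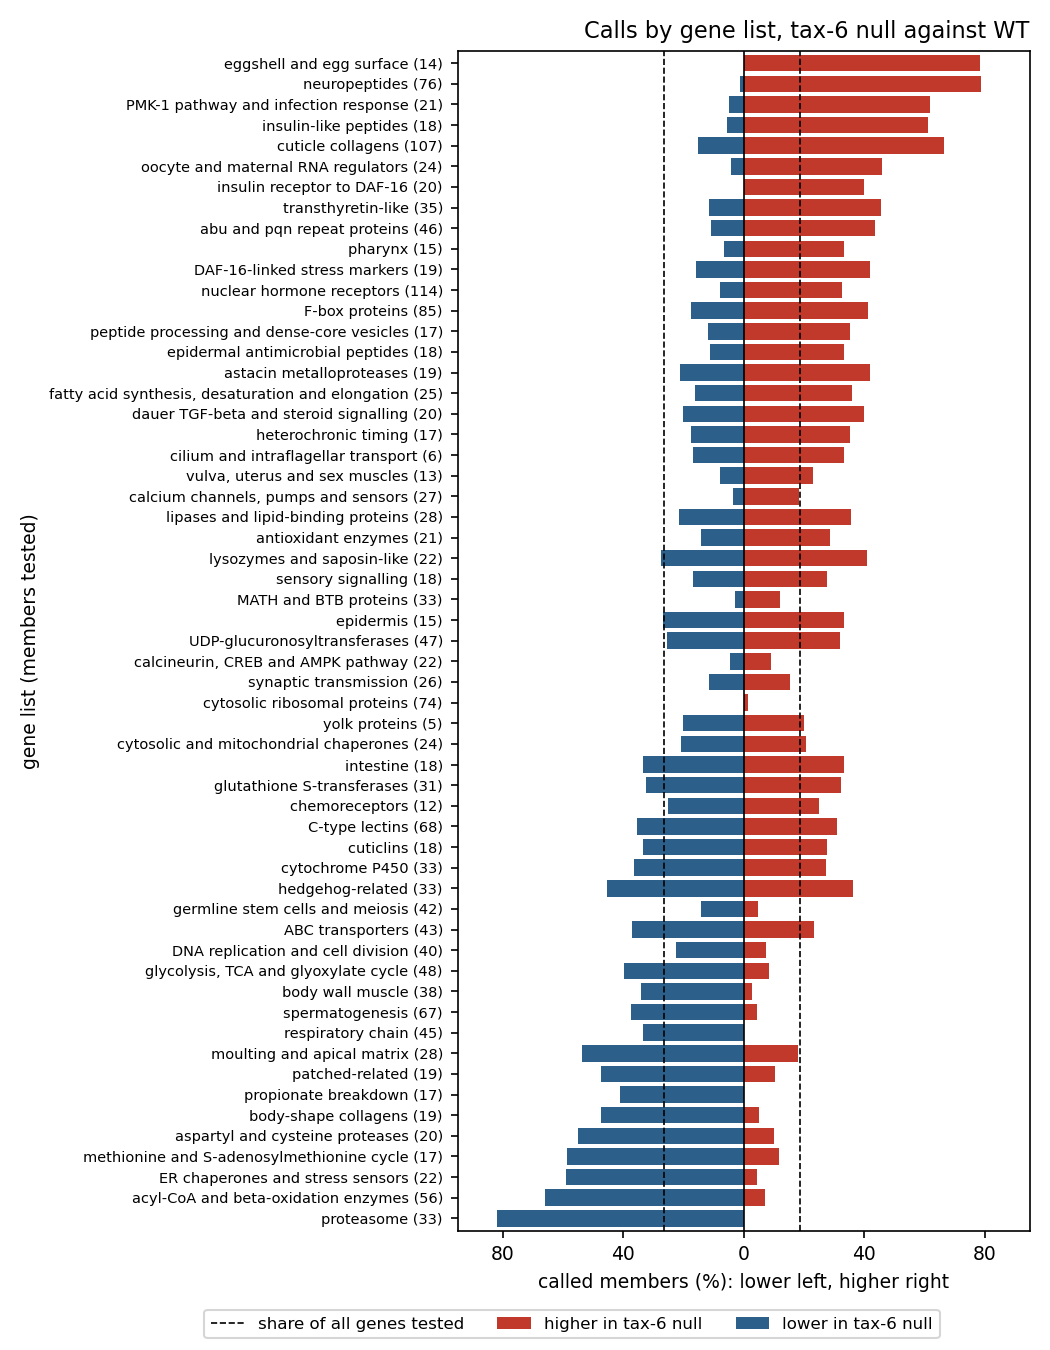
For each of the 57 gene lists (y axis, with the number of genes tested), the percentage of members called higher in tax-6 null (bars to the right) and lower (bars to the left); dashed lines give the shares of all genes tested, 18.7% higher and 26.3% lower. Neuropeptide and eggshell genes reach furthest right, and proteasome genes furthest left.

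Most neuropeptide genes were higher in tax-6 null. Neuropeptides are cut from larger precursors, packed into dense-core vesicles and released to act on receptors on other cells. Of 76 flp and nlp genes tested 60 were higher and 1 lower, with a median difference of 1.28 (62 and 1 without tax-6 null replicate 1, median 1.04). The median over the family was 1.75 in replicate 1, 0.99 in replicate 2 and 1.13 in replicate 3, each taken against the WT mean. In replicate 1, 17 of the 76 genes were at least 2-fold above the other tax-6 null arrays and 3 below. The family's median was above WT in every mutant array and highest in the array that stood apart.

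nlp-81 read 7.79, 7.42 and 7.41 in tax-6 null and 5.48, 5.67 and 5.51 in WT (1.98 ± 0.12, adjusted p = 1.88e-07), a difference close to those against crh-1 null (1.60) and aak-2 o/e (2.19). nlp-36 was the member called lower, with 10.71, 10.27 and 10.36 in tax-6 null and between 10.96 and 11.08 on the WT arrays (-0.57 ± 0.14, adjusted p = 0.00517). Both were separated between the strains on all arrays. The enzymes that mature these peptides went in both directions. pghm-1, which carries out the first step of peptide amidation, read 10.67, 10.18 and 10.18 in tax-6 null and 8.94, 9.19 and 9.03 in WT (1.29 ± 0.16, adjusted p = 5.33e-05). The convertase gene egl-3 rose by 1.30 ± 0.16 (adjusted p = 5.51e-05) and the carboxypeptidase gene egl-21 by 1.09 ± 0.13 (adjusted p = 3.3e-05). aex-5, a convertase known from intestine and muscle, was lower, with 5.44, 6.59 and 6.04 in tax-6 null and 7.64, 7.45 and 7.75 in WT (-1.59 ± 0.24, adjusted p = 0.000198), and cpd-1, a carboxypeptidase gene, was lower too (-1.03 ± 0.15, adjusted p = 0.000166). Of the whole list of 17 processing and vesicle genes 6 were higher, 2 lower and 9 did not pass (47.1% called, against 45.0% of all genes).

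Genes of synaptic transmission were called less often than genes at large (26.9%, against 45.0%). Of 26 tested 4 were higher and 3 lower, with a median of 0.06 and array medians of the list's level of 7.22 to 7.41 in tax-6 null and 7.20 to 7.46 in WT. The 4 rises were at most 0.55 and became 2 without tax-6 null replicate 1 or 2 or WT replicate 1 or 2, and 1 without WT replicate 3, and the 3 falls became 1 without WT replicate 2. rig-6 had the largest difference among them, with 5.99, 8.22 and 7.84 in tax-6 null and 9.01, 8.82 and 9.46 in WT (-1.75 ± 0.46, adjusted p = 0.00853), a call that ended when the 2 strains were fitted alone (adjusted p = 0.0557). Of 18 sensory signalling genes 5 were higher and 3 lower, a called share of 44.4% against 45.0% of all genes, and the rises were 3 without WT replicate 2. odr-10, the receptor for the odorant diacetyl, was at least 1.98-fold higher, with 5.76, 4.46 and 4.75 in tax-6 null and 3.23 in each WT array. This gene passed the filter only through the tax-6 null arrays, so its rise is description. The G-protein alpha gene gpa-9 was at least 3.63-fold higher (adjusted p = 7.22e-06). Most sensory genes were too dim to test: 6 of 50 cilium genes and 12 of 1275 chemoreceptor genes passed the filter.

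Insulin-like peptides are ligands of the receptor DAF-2, whose signalling holds the transcription factor DAF-16 out of the nucleus. Whether the differences below raised or lowered that signalling was not tested. Of 18 tested, 11 were higher and 1 lower, all 12 by at least 2-fold (11 and 1 also without tax-6 null replicate 1), with medians of 1.69, 0.88 and 0.97 in replicates 1, 2 and 3. ins-35 read 10.95, 11.04 and 10.99 in tax-6 null and 8.51, 8.30 and 7.98 in WT (2.73 ± 0.18, adjusted p = 3.26e-07). ins-24 read 7.91, 6.62 and 6.69 in tax-6 null and 4.57, 3.99 and 4.03 in WT (2.87 ± 0.32, adjusted p = 2.48e-05). ins-22 was the lower one, with 5.96, 4.64 and 4.69 in tax-6 null and 6.09, 6.20 and 6.34 in WT (-1.11 ± 0.28, adjusted p = 0.0072), a call that ended when the 2 strains were fitted alone (adjusted p = 0.0522). In ins-24 replicate 1 stood above the other mutant arrays, and in ins-22 it lay just under WT. Of the members known to act in the dauer decision, ins-4 differed by 1.93 ± 0.16 (adjusted p = 2.15e-06) and ins-6 by 1.04 ± 0.20 (adjusted p = 0.00148). daf-28 did not pass (0.57 ± 0.24, adjusted p = 0.0791), and ins-6 and daf-28 were picked after their values were seen.

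**Figure D4:**
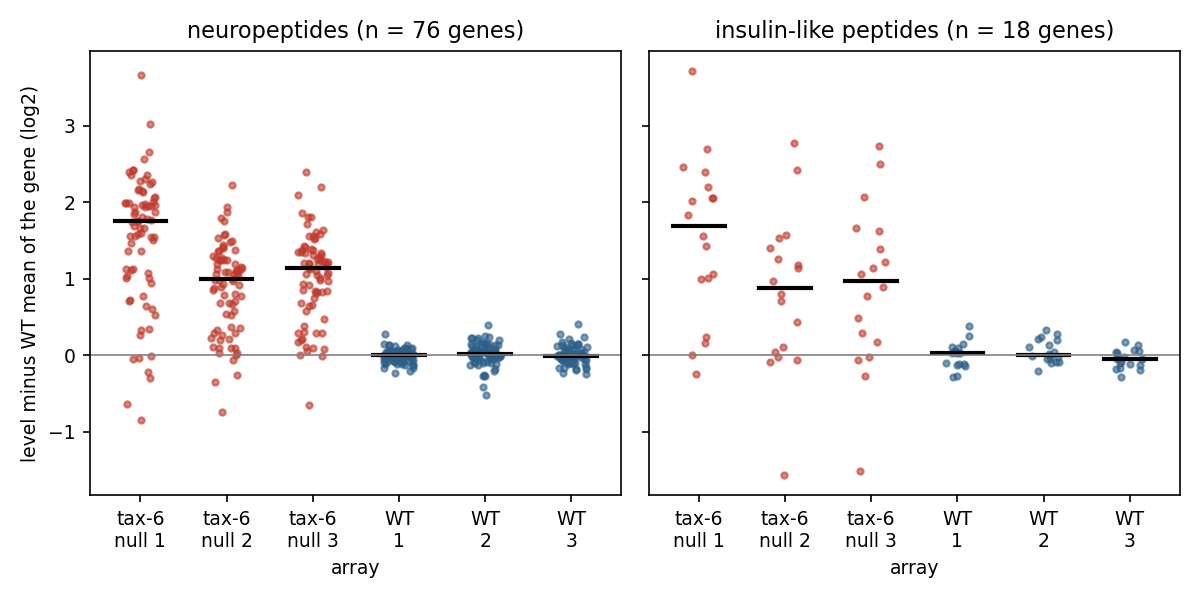
Level of each neuropeptide gene (left, 76 genes) and insulin-like peptide gene (right, 18 genes) on each array minus the WT mean of that gene (y axis, log2); bars mark the median of each array. Neuropeptide medians were 1.75, 0.99 and 1.13 in tax-6 null replicates 1, 2 and 3.

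Downstream of the receptor, 8 of 20 genes of the DAF-16 branch were higher and 0 lower (7 and 0 without tax-6 null replicate 1). The 8 were 5 without tax-6 null replicate 2, and 1 of the 8 was a rise of at least 2-fold. The called share of this list was below the 45.0% of all genes, although its share of rises was above the 18.7% of all genes. pqm-1, a zinc-finger factor that acts opposite DAF-16, read 9.94, 10.81 and 10.75 in tax-6 null and 9.03, 8.35 and 9.14 in WT (1.66 ± 0.25, adjusted p = 0.000202). aap-1, the adaptor subunit of the phosphoinositide 3-kinase, read 7.75, 7.94 and 7.97 in tax-6 null and 7.19, 7.34 and 6.76 in WT (0.79 ± 0.14, adjusted p = 0.000817). Both genes were higher on every mutant array than on any WT array. In the dauer TGF-beta and steroid list 8 of 20 were higher and 4 lower (8 and 3 without tax-6 null replicate 1). Both sma-3, a Smad of the body-size branch, and sma-6, its type I receptor, rose (1.45 ± 0.22, adjusted p = 0.000243, and 1.19 ± 0.14, adjusted p = 2.85e-05). daf-14, a Smad of the dauer branch, read 9.54, 9.75 and 9.90 in tax-6 null and 8.72, 8.52 and 8.72 in WT (1.08 ± 0.12, adjusted p = 1.89e-05), but did not pass against crh-1 null (0.17, adjusted p = 0.282). ncr-2, related to the cholesterol transporter NPC1, was lower (-1.10 ± 0.15, adjusted p = 8.68e-05). daf-7, the TGF-beta ligand of that pathway, did not pass, with 7.28, 6.69 and 6.69 in tax-6 null and 6.67, 6.61 and 6.27 in WT (0.37 ± 0.16, adjusted p = 0.0851).

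Genes often used as readouts of DAF-16 went in both directions, with 8 of 19 higher and 3 lower (7 and 3 without tax-6 null replicate 1). The largest changes were falls, of pud-4 (-4.62 ± 0.23, adjusted p = 2.68e-08) and pud-3 (-4.26 ± 0.29, adjusted p = 4.84e-07). sod-3, the mitochondrial superoxide dismutase, read 6.33, 6.46 and 6.06 in tax-6 null and 4.45, 4.38 and 4.31 in WT (1.90 ± 0.15, adjusted p = 1.78e-06). The lysozyme lys-7 read 12.20, 12.17 and 11.98 in tax-6 null and 10.47, 10.41 and 10.53 in WT (1.65 ± 0.10, adjusted p = 1.68e-07). fat-7, a stearoyl-CoA desaturase, read 9.80, 9.38 and 9.12 in tax-6 null and 6.62, 6.95 and 6.78 in WT (2.65 ± 0.19, adjusted p = 7.59e-07). sod-3, lys-7 and fat-7 were separate from WT on all arrays and higher than in each other strain, sod-3 by 1.91 against crh-1 null and 2.46 against aak-2 o/e.

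Few genes of the pathway around calcineurin itself were called. Of 22 genes of calcineurin, CREB and AMPK tested 2 were higher and 1 lower (13.6% called, against 45.0% of all genes), with a median of 0.09. The counts were 4 and 1 without tax-6 null replicate 1, and 3 were lower without WT replicate 3. cnb-1, the calcineurin regulatory subunit, read 9.94, 9.61 and 9.71 in tax-6 null and 9.59, 9.68 and 9.56 in WT (0.15 ± 0.13, adjusted p = 0.377). rcan-1, which encodes a calcineurin inhibitor, read 8.94, 9.32 and 9.39 in tax-6 null and 8.89, 8.91 and 8.88 in WT (0.32 ± 0.15, adjusted p = 0.0946). It passed when tax-6 null replicate 1, the lowest of the mutant arrays, was left out (0.46, adjusted p = 0.0164). It also passed when the first aak-2 o/e array was left out (0.32, adjusted p = 0.0491). The lower gene was par-5, for a 14-3-3 protein (-0.36 ± 0.09, adjusted p = 0.00656), a call that ended when the probe sets of a gene were averaged (-0.13, adjusted p = 0.232). crh-1 (0.29 ± 0.15, adjusted p = 0.143), aak-2 (0.29 ± 0.19, adjusted p = 0.255) and unc-43, the CaM kinase II gene (-0.02 ± 0.13, adjusted p = 0.924), did not pass. The AMPK gamma subunit gene aakg-4 was higher, with 5.24, 5.99 and 6.16 in tax-6 null and 4.52 in each WT array (1.28 ± 0.21, adjusted p = 0.000429). The other rise, of the gamma subunit gene aakg-5 (0.32 ± 0.11, adjusted p = 0.0284), was no longer called when WT replicate 1 or 3 or tax-6 null replicate 2 or 3 was left out (adjusted p of 0.077, 0.0948, 0.084 and 0.0506) or when probe sets were averaged (0.0579).

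Among 27 calcium channels, pumps and sensors 5 were higher and 1 lower (6 and 1 without tax-6 null replicate 1). The called share was 22.2%, against 45.0% of all genes. Rises made up 18.5%, against 18.7% of all genes, and falls 3.7%, against 26.3%. cal-2, a calmodulin-like gene, read 9.42, 9.30 and 9.59 in tax-6 null and 8.36, 8.11 and 8.06 in WT (1.26 ± 0.16, adjusted p = 5.07e-05). The sodium-calcium exchanger gene ncx-3 read 5.18, 4.60 and 4.93 in tax-6 null and 3.89, 4.15 and 3.97 in WT (0.90 ± 0.14, adjusted p = 0.000291). crt-1, for the calcium-binding chaperone calreticulin, was the lower one, with 14.46, 14.54 and 14.51 in tax-6 null and 14.96, 14.91 and 15.06 in WT (-0.47 ± 0.11, adjusted p = 0.00419). None of these overlapped between the strains, which is description, since they were picked by small adjusted p.

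The hermaphrodite germline makes sperm first and then oocytes. Of 14 eggshell and egg surface genes 11 were higher and 0 lower (median 0.82; 12 and 0 without tax-6 null replicate 1). perm-4, of the eggshell permeability barrier, read 11.19, 11.03 and 11.12 in tax-6 null and 8.19, 8.71 and 8.61 in WT (2.61 ± 0.24, adjusted p = 4.57e-06). cpg-2, an eggshell chondroitin proteoglycan, read 11.49, 11.04 and 11.10 in tax-6 null and 9.0, 9.54 and 9.09 in WT (2.00 ± 0.17, adjusted p = 3.02e-06). The eggshell genes were separate between the strains for 11 of 14 members, where 54.5% of all genes were separate. Against crh-1 null 11 of the 14 were also higher (median 1.24), and against aak-2 o/e 4 were higher and 1 lower (median 0.24). Among 24 oocyte and maternal RNA regulators 11 were higher, 1 was lower and 12 did not pass (median 0.38; 12 and 1 without that array). pos-1, a maternal zinc-finger RNA-binding protein, read 10.06, 9.91 and 9.83 in tax-6 null and 8.08, 8.56 and 8.26 in WT (1.64 ± 0.15, adjusted p = 3.87e-06). zif-1, the substrate receptor that marks such proteins for degradation, was the lower one (-0.80 ± 0.19, adjusted p = 0.00429).

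Of 67 spermatogenesis genes 3 were higher and 25 lower (1 and 24 without tax-6 null replicate 1; 1 higher also without tax-6 null replicate 3, WT replicate 1 or WT replicate 3). The called share was 41.8%, against 45.0% of all genes, and 37.3% were lower, against 26.3%. Their median was -0.11, against -0.09 over all genes, and 39 did not pass. spe-6, a kinase gene of sperm development, read 5.82, 6.57 and 6.86 in tax-6 null and 7.96, 8.17 and 7.95 in WT (-1.61 ± 0.23, adjusted p = 0.000143). spe-4, the presenilin of sperm organelles, read 7.22, 7.47 and 7.43 in tax-6 null and 8.70, 8.95 and 8.84 in WT (-1.46 ± 0.13, adjusted p = 3.04e-06). fog-1, which commits germ cells to the sperm fate, read 6.87, 7.64 and 7.55 in tax-6 null and 6.37, 5.60 and 6.31 in WT (1.26 ± 0.22, adjusted p = 0.000669). fog-1 and these 2 spe genes thus moved in opposite directions. Their lack of overlap is description, since they were picked by small adjusted p. Among the 67 were 23 major sperm protein genes, singled out after their values were seen, and 0 of them was called by limma, with differences of -0.20 to 0.23. The same 23 were all called lower than in aak-2 o/e, with a median of -0.67. Major sperm protein genes are close copies whose probe sets may read several of them.

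Stem cell and meiosis genes gave 2 higher and 6 lower of 42, where 45.0% of all genes were called. The falls were 3 without WT replicate 2 and 2 without WT replicate 3, and the rises 4 without tax-6 null replicate 1. csr-1, a germline Argonaute, read 7.76, 7.80 and 7.96 in tax-6 null and 8.61, 8.73 and 8.41 in WT (-0.74 ± 0.13, adjusted p = 0.000796). Of 40 DNA replication and cell division genes 3 were higher (7.5%, against 18.7% of all genes) and 9 lower (22.5%, against 26.3%), and the falls were 4 without WT replicate 3. The ribonucleotide reductase gene rnr-1 fell to 8.84, 9.34 and 9.46 in tax-6 null, against 10.24, 10.40 and 10.40 in WT (-1.13 ± 0.15, adjusted p = 7.18e-05). The cyclin-dependent kinase inhibitor cki-1 read 9.40, 9.54 and 9.31 in tax-6 null and 8.23, 8.41 and 8.07 in WT (1.18 ± 0.14, adjusted p = 2.81e-05). Both genes were separate between the strains.

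The yolk genes, which the adult intestine makes for oocytes, differed from each other. vit-2 read 9.35, 9.70 and 10.42 in tax-6 null and 7.06, 6.96 and 7.11 in WT (2.78 ± 0.24, adjusted p = 3.03e-06). vit-1 read 6.86, 6.82 and 7.79 in tax-6 null and 9.88, 9.71 and 9.84 in WT (-2.66 ± 0.24, adjusted p = 3.67e-06). vit-4, vit-5 and vit-6 did not pass and their arrays overlapped, with replicate 3 the highest mutant array for each. Set against the other strains, the 5 genes had a median difference of 3.07 from crh-1 null (4 higher, 1 lower) and of -4.05 from aak-2 o/e (5 lower). vit genes are similar in sequence, and 3 of the 5 probe sets may match more than 1 transcript.

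Lists of metabolic genes differed in their direction. Propionate, a product of branched-chain amino acids and odd-chain fats, is broken down through a route that needs vitamin B12 (pcca-1, pccb-1, mce-1, mmcm-1) or, when that is limiting, through a shunt (acdh-1, ech-6, hach-1, hphd-1, alh-8) that the nuclear receptors NHR-10 and NHR-68 switch on. Of 17 genes of both routes 0 were higher and 7 lower (1 and 7 without tax-6 null replicate 1). The called share was 41.2%, all of it falls, where 45.0% of all genes were called and 26.3% were lower. Shunt genes made up 4 of the 7. acdh-1, its first enzyme, read 4.01, 3.98 and 4.30 in tax-6 null and 12.68, 12.65 and 12.77 in WT (-8.60 ± 0.20, adjusted p = 7.98e-11). hphd-1, a dehydrogenase of the shunt, read 9.07, 9.06 and 9.20 in tax-6 null and 11.95, 11.97 and 11.96 in WT (-2.85 ± 0.11, adjusted p = 3.54e-09). hach-1, a hydrolase of the shunt, read 9.13, 9.03 and 9.04 in tax-6 null and 10.66, 10.67 and 10.74 in WT (-1.63 ± 0.10, adjusted p = 1.78e-07). For each of these enzymes the spread among the arrays of a strain was far below the difference between the strains.

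ech-6, the enoyl-CoA hydratase of the shunt, was lower as well (-1.42 ± 0.11, adjusted p = 1.44e-06), but alh-8, its last enzyme, did not pass (-0.10 ± 0.12, adjusted p = 0.56). Of the regulators, nhr-68 read 7.23, 7.25 and 7.35 in tax-6 null and 9.98, 9.94 and 9.76 in WT (-2.62 ± 0.17, adjusted p = 2.51e-07). nhr-10 did not pass, with 9.13, 9.29 and 9.38 in tax-6 null and 9.26, 8.50 and 9.19 in WT (0.29 ± 0.17, adjusted p = 0.209). The enzymes of the vitamin B12 route did not pass either: pcca-1 differed by 0.03 ± 0.10 (adjusted p = 0.814), pccb-1 by 0.26 ± 0.10 (0.0608), mce-1 by -0.17 ± 0.15 (0.395) and mmcm-1 by 0.13 ± 0.16 (0.548). These and alh-8 and nhr-10 were named after their values were seen, to complete the pathway. acdh-1 was lower than in crh-1 null by 7.81 and than in aak-2 o/e by 8.89 on the log2 scale.

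**Figure D5:**
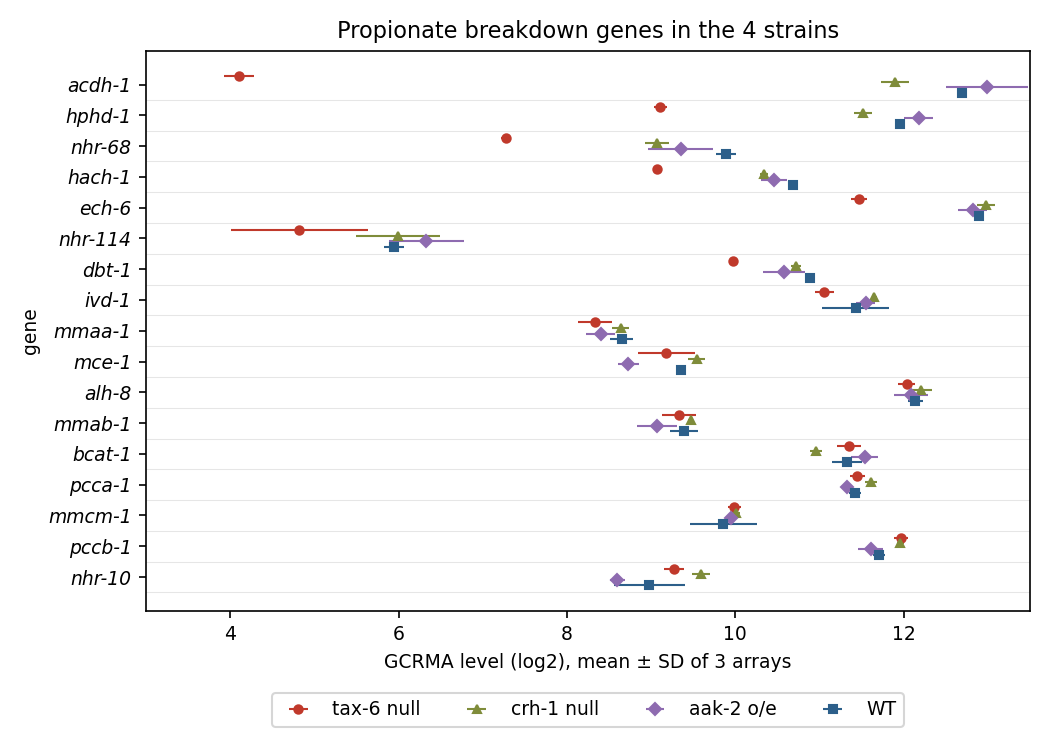
Log2 level (mean ± SD of 3 arrays) of the 17 propionate breakdown genes in tax-6 null, crh-1 null, aak-2 o/e and WT. acdh-1 averaged 4.1 in tax-6 null and 12.7 in WT, and the genes of the vitamin B12 route (pcca-1, pccb-1, mce-1, mmcm-1) lie close together in both strains.

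The methionine cycle, which needs vitamin B12 for methionine synthase and supplies methyl groups for phosphatidylcholine, had 2 genes higher and 10 lower of 17 (median -0.58; 2 and 10 also without tax-6 null replicate 1). mtrr-1, which keeps methionine synthase active, read 7.72, 7.64 and 7.66 in tax-6 null and 8.76, 8.89 and 8.80 in WT (-1.15 ± 0.12, adjusted p = 1.7e-05). pmt-2, a methyltransferase of phosphatidylcholine synthesis, read 13.76, 13.57 and 13.60 in tax-6 null and 14.47, 14.45 and 14.33 in WT (-0.78 ± 0.10, adjusted p = 6.2e-05). Both were lower on every mutant array. sams-5, an S-adenosylmethionine synthetase gene, was higher (0.72 ± 0.15, adjusted p = 0.00191). Members of the sams family are similar to each other, so reads of 1 probe set may include another member.

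Fat breakdown and fat synthesis differed. Of 56 acyl-CoA and beta-oxidation enzymes 4 were higher and 37 lower, with a median of -0.59 (6 and 35 without tax-6 null replicate 1), and 10 of the falls were at least 2-fold. ech-9, an enoyl-CoA hydratase gene, was among the rises, with 9.17, 8.75 and 8.74 in tax-6 null and 4.93, 5.06 and 5.50 in WT (3.72 ± 0.33, adjusted p = 3.67e-06). acs-17 was higher too (1.30 ± 0.15, adjusted p = 2.67e-05). Of 25 fatty acid synthesis, desaturation and elongation genes 9 were higher and 4 lower, and the falls were 7 without tax-6 null replicate 1. mdt-15, a Mediator subunit that activates desaturase genes, read 8.04, 8.09 and 8.05 in tax-6 null and 7.19, 7.58 and 7.16 in WT (0.75 ± 0.15, adjusted p = 0.00188). The elongase gene elo-7 read 6.59, 6.50 and 6.43 in tax-6 null and 7.92, 8.30 and 7.90 in WT (-1.53 ± 0.13, adjusted p = 2.79e-06). Each of these was separate between the strains. Among 28 lipases and lipid-binding proteins 10 were higher and 6 lower (10 and 9 without that array), led by a rise of lips-17 (2.85 ± 0.20, adjusted p = 4.84e-07) and a fall of lips-14 of at least 5.53-fold.

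Central carbon metabolism gave 4 higher and 19 lower of 48 genes (4 and 21 without tax-6 null replicate 1). The called share was 47.9%, against 45.0% of all genes, and 39.6% were lower, against 26.3%. Triose phosphate isomerase, tpi-1, read 10.11, 9.72 and 9.82 in tax-6 null and 10.68, 10.88 and 10.85 in WT (-0.92 ± 0.14, adjusted p = 0.000223). The succinyl-CoA synthetase gene sucg-1 read 9.04, 9.53 and 9.37 in tax-6 null and 10.49, 10.48 and 10.50 in WT (-1.18 ± 0.16, adjusted p = 0.000121). Hexokinase hxk-1 read 9.80, 9.47 and 10.10 in tax-6 null and 8.84, 8.80 and 8.79 in WT (0.98 ± 0.19, adjusted p = 0.00122). The trehalose synthesis gene tps-1 was higher too (1.07 ± 0.23, adjusted p = 0.00291). Of 45 respiratory chain genes 15 were lower and 0 higher, 33.3% against 26.3% of all genes, none by 2-fold. nuo-1, of complex I, was lower by a small amount (-0.54 ± 0.11, adjusted p = 0.00178).

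Of 33 proteasome subunits 27 were lower and 0 higher, with a median of -0.51 (30 and 0 without tax-6 null replicate 1), and for 31 the strains did not overlap, against 54.5% of all genes. rpt-6, an ATPase of the regulatory particle, read 7.0, 6.95 and 6.94 in tax-6 null and 7.52, 7.56 and 7.65 in WT (-0.61 ± 0.09, adjusted p = 0.000136). pas-7, of the catalytic core, read 9.98, 9.10 and 9.32 in tax-6 null and 10.52, 10.76 and 10.58 in WT (-1.16 ± 0.19, adjusted p = 0.000465), and was the subunit past 2-fold. The median of the 33 subunits against the WT mean was -0.56, -0.50 and -0.54 in replicates 1, 2 and 3 of tax-6 null. Of 74 cytosolic ribosomal protein genes 1 was called by limma, with a median of 0.02, and their array medians were 15.19 to 15.24 in tax-6 null and 15.18 to 15.19 in WT, near the top of the scale.

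Endoplasmic reticulum (ER) chaperones and stress sensors gave 1 higher and 13 lower of 22 (median -0.48; 1 and 12 without tax-6 null replicate 1). pdi-2, the disulfide isomerase that also serves collagen prolyl hydroxylase, read 13.06, 13.00 and 12.88 in tax-6 null and 14.12, 14.17 and 14.00 in WT (-1.11 ± 0.10, adjusted p = 3.17e-06). phy-2, a prolyl 4-hydroxylase subunit that modifies collagen, read 9.58, 8.95 and 9.15 in tax-6 null and 10.55, 10.74 and 10.57 in WT (-1.39 ± 0.18, adjusted p = 6.12e-05). hsp-4, the BiP homologue used as an ER stress readout, read 10.33, 10.84 and 10.79 in tax-6 null and 11.35, 11.31 and 11.47 in WT (-0.72 ± 0.17, adjusted p = 0.00492). All 3 were lower on every mutant array, while xbp-1 overlapped and did not pass (-0.10 ± 0.21, adjusted p = 0.751). The sensor gene atf-6 was the higher one (0.80 ± 0.18, adjusted p = 0.0033).

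The abu and pqn genes encode proteins rich in glutamine and asparagine or cysteine repeats, some of them found in the pharyngeal cuticle. Of 46, 20 were higher and 5 lower (20 and 5 also without tax-6 null replicate 1). abu-15 read 9.57, 10.98 and 10.68 in tax-6 null and 5.45, 5.26 and 5.74 in WT (4.93 ± 0.36, adjusted p = 7.2e-07). pqn-54 read 7.77, 8.90 and 8.46 in tax-6 null and 3.52, 3.85 and 4.16 in WT (4.54 ± 0.37, adjusted p = 1.72e-06). abu-13 read 10.06, 10.71 and 10.69 in tax-6 null and 11.63, 11.85 and 11.80 in WT (-1.27 ± 0.18, adjusted p = 0.000137). In each of these genes replicate 1 had the lowest mutant level, and 10 of the 46 genes were at least 2-fold lower there than in the other mutant arrays. Many abu genes are near copies, and 23 of the 46 probe sets may match more than 1 transcript. Of 24 cytosolic and mitochondrial chaperones 5 were higher and 5 lower (41.7% called, against 45.0% of all genes). These counts were 3 and 2 without WT replicate 1 or 2, and 3 and 3 without WT replicate 3 or tax-6 null replicate 3. The falls were also 3 without aak-2 o/e replicate 2 or any 1 crh-1 null array. The small heat shock gene sip-1 rose to 13.61, 13.74 and 13.72 in tax-6 null, against 10.18, 10.61 and 10.11 in WT (3.39 ± 0.19, adjusted p = 8.38e-08).

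Of 21 genes of the PMK-1 p38 pathway and its outputs 13 were higher, 1 was lower and 7 did not pass, with a median of 0.79 (14 and 2 without tax-6 null replicate 1). irg-1, induced by Pseudomonas through the factor ZIP-2, read 8.92, 9.22 and 9.07 in tax-6 null and 4.24, 4.63 and 4.24 in WT (4.70 ± 0.23, adjusted p = 2.41e-08). irg-4, induced through PMK-1, read 12.39, 12.28 and 12.10 in tax-6 null and 10.28, 10.24 and 10.08 in WT (2.06 ± 0.15, adjusted p = 7.72e-07). C32H11.4 read 12.84, 13.36 and 13.02 in tax-6 null and 9.25, 9.36 and 9.55 in WT (3.69 ± 0.18, adjusted p = 2.81e-08). The arrays of the strains were fully separate for these outputs. The kinase genes of the pathway did not pass: pmk-1 differed by 0.18 ± 0.15 (adjusted p = 0.371) and sek-1 by 0.04 ± 0.13 (adjusted p = 0.826). zip-2 itself was higher (1.12 ± 0.13, adjusted p = 3.92e-05). These 3 were named after their values were seen. sysm-1 was the lower member (-1.41 ± 0.23, adjusted p = 0.000454).

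Other immune families were divided. C-type lectins, secreted sugar-binding proteins, gave 21 higher and 24 lower of 68 (19 and 26 without tax-6 null replicate 1). clec-52 read 10.10, 9.99 and 9.68 in tax-6 null and 5.91, 6.09 and 5.72 in WT (4.02 ± 0.15, adjusted p = 3.54e-09). clec-10 read 6.31, 6.33 and 6.24 in tax-6 null and 9.14, 8.92 and 8.94 in WT (-2.71 ± 0.10, adjusted p = 3.97e-09). Of 22 lysozymes and saposin-like genes 9 were higher and 6 lower, but 7 and 8 without tax-6 null replicate 1. The called share was 68.2%, against 45.0% of all genes. The invertebrate lysozyme ilys-5 read 12.21, 12.08 and 12.30 in tax-6 null and 15.17, 15.34 and 15.17 in WT (-3.03 ± 0.10, adjusted p = 1.76e-09), from among the brightest signals on the WT arrays. The arrays of the strains were apart for these 3 genes by far more than their spread. Epidermal antimicrobial peptide genes gave 6 higher and 2 lower of 18 (44.4% called, against 45.0% of all genes). fipr-24 was the most raised (4.26 ± 0.25, adjusted p = 1.2e-07), and cnc-8 and nlp-27 were higher than WT (1.76 ± 0.16, adjusted p = 4.71e-06, and 1.96 ± 0.18, adjusted p = 4.93e-06) but not than crh-1 null (-0.26, adjusted p = 0.235, and -0.27, adjusted p = 0.267).

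Detoxification families were likewise divided but held single genes with steep rises. Glutathione S-transferases, which conjugate glutathione to toxins, gave 10 higher and 10 lower of 31 (11 and 12 without tax-6 null replicate 1). gst-24 read 10.91, 11.32 and 11.04 in tax-6 null and 6.29, 6.11 and 5.86 in WT (5.0 ± 0.14, adjusted p = 3.67e-10). gst-38 read 13.71, 13.17 and 13.27 in tax-6 null and 9.70, 9.82 and 9.45 in WT (3.73 ± 0.16, adjusted p = 7.54e-09). gst-10, which acts on the lipid peroxidation product 4-hydroxynonenal, read 11.06, 10.73 and 10.57 in tax-6 null and 12.69, 12.51 and 12.49 in WT (-1.78 ± 0.16, adjusted p = 3.52e-06). These values were separate in all arrays. UDP-glucuronosyltransferases gave 15 higher and 12 lower of 47 (14 and 14 without tax-6 null replicate 1), led by ugt-18 (4.29 ± 0.19, adjusted p = 9.11e-09). Cytochrome P450 genes gave 9 higher and 12 lower of 33 (10 and 13 without that array), with cyp-14A5 up by 2.87 ± 0.16 (adjusted p = 1.06e-07). The called shares were 57.4% and 63.6%, against 45.0% of all genes. Of 43 ABC transporters, which pump substrates across membranes, 10 were higher and 16 lower (12 and 13 without tax-6 null replicate 1). The called share was 60.5%, against 45.0% of all genes. The P-glycoprotein gene pgp-8 read 6.41, 6.97 and 6.82 in tax-6 null and 2.15, 2.14 and 2.26 in WT, at least 6.65-fold higher. It averaged 2.14 in crh-1 null and 2.13 in aak-2 o/e. Only the tax-6 null arrays carried it past the filter, so its rise is given as description. haf-6, a half-transporter gene, read 3.78, 5.39 and 4.77 in tax-6 null and 9.01, 9.12 and 9.08 in WT (-4.43 ± 0.29, adjusted p = 3.38e-07). Of 21 antioxidant enzymes 6 were higher and 3 lower (42.9% called, against 45.0% of all genes). The falls were 1 without WT replicate 2 or tax-6 null replicate 3, and the glutathione peroxidase gene gpx-3 had the largest difference (2.85 ± 0.25, adjusted p = 3.07e-06).

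Among regulatory families, nuclear hormone receptors gave 37 higher and 9 lower of 114 (41 and 8 without tax-6 null replicate 1), 9 of the rises by at least 2-fold. Of these receptors 40.4% were called, against 45.0% of all genes, and 32.5% were higher, against 18.7%. nhr-3 had the largest rise, with 7.42, 7.20 and 8.86 in tax-6 null and 5.34, 5.24 and 4.57 in WT (2.78 ± 0.39, adjusted p = 0.000128), and nhr-68 the largest fall. F-box genes, which encode substrate receptors of ubiquitin ligases, gave 35 higher and 15 lower of 85 (30 and 18 without that array). fbxa-163 read 10.26, 10.77 and 10.44 in tax-6 null and 2.11 in each WT array, at least 90.0-fold higher (adjusted p = 8.81e-13). fbxa-82 read 6.58, 6.65 and 6.73 in tax-6 null and 4.26, 4.24 and 4.40 in WT (2.35 ± 0.09, adjusted p = 3.97e-09). Both were called in every comparison of tax-6 null. Transthyretin-like genes gave 16 higher and 4 lower of 35, and ttr-21 read 10.18, 9.71 and 9.99 in tax-6 null and 5.77, 5.42 and 5.48 in WT (4.41 ± 0.19, adjusted p = 8.05e-09). Aspartyl and cysteine proteases, mostly digestive enzymes of the gut, gave 2 higher and 11 lower of 20. The cathepsin B-like gene cpr-1 read 11.63, 11.77 and 11.66 in tax-6 null and 12.93, 13.05 and 13.04 in WT (-1.32 ± 0.11, adjusted p = 1.62e-06).

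Markers of the main tissues give the background for these differences, and their part in the results above was not tested. Body wall muscle genes gave 1 higher and 13 lower of 38 (1 and 14 without tax-6 null replicate 1), with array medians of 10.56 to 11.08 in tax-6 null and 11.06 to 11.07 in WT. Of these muscle genes 36.8% were called, against 45.0% of all genes, and 34.2% were lower, against 26.3%. The muscle myosin gene unc-54 read 12.57, 12.88 and 12.94 in tax-6 null and 13.16, 13.27 and 13.36 in WT (-0.47 ± 0.11, adjusted p = 0.00547), lower on every mutant array. Intestinal markers gave 6 higher and 6 lower of 18, with array medians of 9.90 to 10.26 in tax-6 null and 9.87 to 10.02 in WT. The gut esterase gene ges-1 fell to 7.48, 7.75 and 7.68 in tax-6 null, against 8.99, 8.95 and 8.89 in WT (-1.31 ± 0.11, adjusted p = 1.86e-06), and the intestinal intermediate filament gene ifb-2 rose (0.82 ± 0.11, adjusted p = 7.17e-05). Pharyngeal markers gave 5 higher and 1 lower of 15, with array medians of 8.24 to 8.88 in tax-6 null and 8.07 to 8.23 in WT. Epidermal markers gave 5 higher and 4 lower of 15 (8.85 to 9.16 in tax-6 null and 8.77 to 8.83 in WT), the falls 2 without WT replicate 3 or tax-6 null replicate 2. che-14, needed for secretion at the apical side of epithelia, was lower (-1.49 ± 0.19, adjusted p = 6.47e-05) and the matrix receptor gene mup-4 higher (2.05 ± 0.25, adjusted p = 3.96e-05). Vulval and uterine markers gave 3 higher and 1 lower of 13 (30.8% called, against 45.0% of all genes). The called share of pharyngeal markers was also below that of all genes, and those of intestinal and epidermal markers were above it.

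Set against all 3 other strains at once, 991 genes (9.56%) were higher in tax-6 null and 989 (9.54%) lower, each called in all 3 comparisons, which share the tax-6 null arrays. The smallest of the 3 differences was largest for fbxa-163 among the rises (8.34) and for bcf-1 among the falls (-9.83). Several genes read near the lowest level outside tax-6 null. K07A1.6 read 8.75, 7.52 and 8.23 in tax-6 null and 2.12, 2.11 and 2.12 in WT, at least 18.0-fold higher, and differed by 6.05 from each of the other strains. ZK813.7 differed by 6.51 from each, and grl-20 by 6.68 from each. These genes sat at the lowest level of the scale in all 9 arrays outside tax-6 null. If the limit is drawn at 4, 99 of the genes called higher than WT lay below it on all 9. Such a gene could pass the filter only through its 3 tax-6 null arrays. Its rise and the separation of the strains were thus fixed by the filter and are given as description. Other named genes, such as stha-3, fbxa-163, col-158, pgp-8, odr-10, cut-1, C04H5.7 and Y62H9A.4, entered in the same way. Adjusted p-values printed for such genes are likewise description. bcf-1 was the extreme on the other side, with 5.09, 3.37 and 3.35 in tax-6 null and 14.06, 13.98 and 13.92 in WT (-10.05 ± 0.35, adjusted p = 1.82e-09). It differed by -10.00 from crh-1 null and -9.83 from aak-2 o/e. Y102A5C.6 was lower by about the same in each comparison (-3.54, -3.62 and -3.58 against WT, crh-1 null and aak-2 o/e). Other steep differences from WT were small against crh-1 null. pud-4 differed by -4.62 from WT but did not pass against crh-1 null (-0.60, adjusted p = 0.0585), and gtnt-18 differed by -3.21 from WT and 0.00 from crh-1 null (adjusted p = 0.996).

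Replicate 1 of tax-6 null differed from the other mutant arrays at named genes as well, given here as description. drh-2, which encodes a Dicer-related helicase, read 5.28, 9.13 and 9.07 in tax-6 null and 8.48, 7.71 and 8.84 in WT. rad-50, of the DNA break repair complex, read 5.12, 8.31 and 7.80 in tax-6 null and 7.42, 7.14 and 7.69 in WT. prg-2, a Piwi Argonaute gene, read 6.56, 9.02 and 8.88 in tax-6 null and 8.41, 8.63 and 8.57 in WT. In all 3 the first mutant array was at least 4-fold below the mean of the others and below every WT array, and none passed over all arrays. prg-2 changed direction without this array, with a difference of 0.42 (adjusted p = 0.0429) in place of -0.38 (adjusted p = 0.565). On the other side C04H5.7 read 7.08, 4.92 and 5.20 in tax-6 null and 2.12, 2.12 and 2.11 in WT, at least 3.32-fold higher (adjusted p = 2.42e-05), and nssp-86 read 7.19, 5.13 and 5.17 in tax-6 null and 5.04, 5.10 and 4.86 in WT and did not pass (adjusted p = 0.143). By list the gap between replicate 1 and the other mutant arrays had a median of 0.75 for insulin-like peptides, 0.60 for neuropeptides, -0.34 for meiosis genes and -0.49 for abu and pqn genes.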

How the data were processed

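The values analysed were deposited log2 expression values for 22625 probe sets on 12 arrays. Per the submitters' processing notes GCOS 1.4 and GCRMA were used; the GCRMA version and settings are not stated there. GEO's platform annotation gave 1 gene for 20766 probe sets, several for 887 and none for 895, and 77 were controls; 20701 of those with 1 gene were matched to current symbols. Probe sets with a log2 value of at least 4 on 3 or more arrays were kept (13396), and the brightest probe set over all arrays stood for its gene. Of 2057 genes with several probe sets, 8 had probe sets called in opposite directions, among them nhr-23 and lev-11. limma 3.58.1 in R 4.3.3 fitted all 4 strains together (lmFit, eBayes, residual degrees of freedom 8), and adjusted p-values run over all probe sets tested. The fit was also run on data simulated with independent noise and no array standing apart, a setting that cannot vouch for the calls made here.

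The members, gene lists and tests were chosen with earlier results of these data known. Named genes come from the 12 largest non-overlapping changes each way among class-named genes and 5 among sequence-named ones, of each list the 4 members with the smallest adjusted p and up to 2 in the minority direction (all where 8 or fewer were tested), genes that differ most from all other strains, genes with the largest gap in tax-6 null replicate 1, and fixed pathway genes. Lists share members (nlp-24 to nlp-34 are neuropeptides and epidermal peptides). Nearest the threshold, 5 called genes differed by 0.41 to 0.70 (adjusted p 0.0499 to 0.04999) and 5 uncalled ones by 0.31 to 0.71 (0.05005 to 0.05018). Same-numbered tax-6 null and WT arrays deviated from their group means with correlations of 0.02, -0.2 and 0.07, so the numbers were not taken to pair the arrays. Alternatives tried were quantile normalisation, median centring, other filters and thresholds, only the strains compared, array weights, a trended robust eBayes, averaged probe sets, a replicate block and leaving out each array.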

Additional observations from a re-analysis of the deposited data

How the results depend on the processing

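For tax-6 null against WT, 4664 genes were called with all arrays. Leaving out 1 array at a time gave 4015 to 4810. With the replicate number as a replicate block 4399 were called (1827 higher, 2572 lower). The count moved by over 1.5 times under 1 alternative, a change of at least 2-fold, with 1813 (964 higher, 849 lower). The same limit gave 1335 for tax-6 null against crh-1 null (859 higher, 476 lower) and 2479 for tax-6 null against aak-2 o/e (1218 higher, 1261 lower). At an adjusted p of 0.01, 1391 genes were lower than in crh-1 null. Another scaling moved the share of calls that were higher than WT between 41.5% and 45.3%, and the median difference of all genes to -0.08 (quantile) or -0.05 (median centring). Among 11107 values under alternatives 10503 kept their direction and side of the threshold, or for counts stayed within 1.5 times, and 1 turned round, that of prg-2, at 0.42 (adjusted p = 0.0429) without tax-6 null replicate 1. Its differences with 1 array left out ran from -0.81 to 0.42, and the cause was not tested. Precision is limited by 3 arrays per strain and by dim signals: 57.2% to 58.1% of probe sets reached a log2 of 4 on each array.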

Other observations

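Of the genes that the files give only by sequence name, F54F7.3 and Y62H9A.4 were low in WT and bright in tax-6 null. F54F7.3 read 9.14, 9.25 and 9.38 in tax-6 null and 2.64, 3.12 and 3.11 in WT, at least 38.3-fold higher (limma adjusted p = 3.96e-10). Y62H9A.4 read 9.04, 8.24 and 8.46 in tax-6 null and 2.31, 2.30 and 2.30 in WT. F54F7.3 differed much less from aak-2 o/e (1.5, adjusted p = 2.46e-05), Y62H9A.4 about as much (6.04). Y62H9A.4 passed the filter only through the tax-6 null arrays, so its rise is description. In the other direction Y46G5A.29 read 7.53, 7.54 and 7.50 in tax-6 null and 10.83, 10.86 and 10.77 in WT (-3.30 ± 0.13, adjusted p = 3.54e-09). F59E11.6 was at least 6.25-fold lower than WT (adjusted p = 5.38e-08) and slightly higher than in crh-1 null (0.73, adjusted p = 0.00506).

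Cuticlins, structural proteins of the cuticle, gave 5 higher and 6 lower of 18, the rises 2 without WT replicate 2. cut-1, known from the dauer cuticle, read 6.17, 7.96 and 5.32 in tax-6 null and 3.39, 3.39 and 3.37 in WT, at least 5.6-fold higher. It differed by 3.10 from each of the other strains. Only the tax-6 null arrays carried cut-1 past the filter, so its rise is description. cutl-18 read 6.47, 6.53 and 6.68 in tax-6 null and 8.13, 8.05 and 8.05 in WT (-1.52 ± 0.11, adjusted p = 1e-06). MATH and BTB proteins gave 4 higher and 1 lower of 33, the falls 3 without tax-6 null replicate 2, and bath-36 differed most (1.41 ± 0.15, adjusted p = 2.03e-05).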
